A study of Mus musculus with 40 samples.

Results

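The Slc25 family of mitochondrial carriers was followed in whole pancreas of 40 male mice. Members were all genes whose symbol in the platform annotation starts with Slc25a, which gave 39 genes of 16593 annotated genes on the array, read by 57 of its 25697 signals, where 1 signal is the intensity of 1 array probe. The uncoupling proteins Ucp1 to Ucp3 belong to the same protein family but carry other symbols and were not counted. Only signals brighter than the array median in 20 or more mice were tested, and 35 signals of 27 members passed, of 12246 signals of 8858 genes in all.

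The mice were inbred C57BL/6J males (C57BL\6 in the labels), young adults, born in breeding cages to dams kept on a diet either rich (HF) or poor (LF) in fat before and during pregnancy and until weaning, and were then fed HF or LF themselves. Coconut oil was the main fat of both diets. The labels name no engineered allele, and the C57BL/6J strain is known for a spontaneous deletion in Nnt, an enzyme of the inner mitochondrial membrane, which all groups would share. The groups are named by the diet of the dam first and the diet after weaning second, so that HF_HF and HF_LF were offspring of HF dams fed HF or LF, and LF_HF and LF_LF were offspring of LF dams fed HF or LF. Each group had 10 mice, 1 array per mouse, from 4 cages in HF_HF, 5 in HF_LF, 4 in LF_HF and 4 in LF_LF. Of the 12 cages, 5 held mice on both diets, and every cage had 1 dam diet, with 6 cages of HF dams and 6 of LF dams.

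Slc25 carriers are small membrane proteins that, with few exceptions, sit in the inner mitochondrial membrane and let metabolites pass between cytosol and matrix. They carry ADP and ATP, phosphate, carboxylates of the citric acid cycle, amino acids, carnitine esters, nucleotides and cofactors, and several are still orphans, proteins with no settled substrate. The exocrine pancreas is built mostly of acinar cells, which make and secrete digestive enzymes at a high rate and need ATP and amino acids to do so.

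Promoters in RefSeq (GRCm38.p6; 250 bases before to 50 bases after a transcription start) matched 32 of the 39 members. Those of the 3 carriers with a called rise are shown because these genes moved in the same direction under the HF diet after weaning. Capitals mark each GC box (GGGCGG or its reverse complement) and, in Slc25a3, the core motif of the nuclear respiratory factor NRF1 (CGCNTGCG, either strand), and the 2 marked motifs did not overlap.
Slc25a45, chr19:5877572-5877871 (+): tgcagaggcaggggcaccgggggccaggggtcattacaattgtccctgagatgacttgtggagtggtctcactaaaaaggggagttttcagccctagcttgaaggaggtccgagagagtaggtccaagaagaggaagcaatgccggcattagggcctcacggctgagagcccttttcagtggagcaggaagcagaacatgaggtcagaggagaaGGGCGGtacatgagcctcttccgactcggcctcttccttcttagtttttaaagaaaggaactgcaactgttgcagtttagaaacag
Slc25a38, chr9:120110132-120110431 (+): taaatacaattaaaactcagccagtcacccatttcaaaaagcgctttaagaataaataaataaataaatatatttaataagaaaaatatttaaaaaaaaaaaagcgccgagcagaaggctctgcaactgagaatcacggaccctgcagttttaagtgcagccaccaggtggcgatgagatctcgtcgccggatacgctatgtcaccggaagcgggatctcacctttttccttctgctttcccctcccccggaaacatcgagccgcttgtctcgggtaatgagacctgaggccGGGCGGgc
Slc25a3, chr10:91123918-91124217 (-): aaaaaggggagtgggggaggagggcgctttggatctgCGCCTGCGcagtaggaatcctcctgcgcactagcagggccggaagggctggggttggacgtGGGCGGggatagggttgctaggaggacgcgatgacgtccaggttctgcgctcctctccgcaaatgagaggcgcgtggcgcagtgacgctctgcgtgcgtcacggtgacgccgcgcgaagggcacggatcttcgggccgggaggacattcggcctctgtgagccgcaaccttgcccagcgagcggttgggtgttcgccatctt
Each of the 3 promoters held 1 GC box, a motif found in 35.7% of all 32851 promoters of this length and in 27 of the 32 matched members. The NRF1 core motif was in 8.21% of all promoters and in 2 of the matched members. The E box CACGTG was in 7 matched members and in 7.15% of all promoters, and CCAAT was in 17 members and in 37.4% of all promoters, both with either strand counted and neither in the 3 promoters shown. The ATF4 element TGATGNAA, in 3.97% of all promoters, and the oestrogen related receptor motif TCAAGGTCA, in 0.423%, were searched on both strands and were not found in the windows of matched members.

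Across the 40 arrays, all 17 measured markers of acinar cells, the cells that make up most of the labelled tissue, passed the filter, and their summed signal lay between 368979 and 399465 in every group. Array medians were 62.9 to 63 and correlations between arrays 0.929 to 0.992, and 3 arrays stood apart from the rest. Mice are numbered within a group only to name them. The 3 were LF_LF 1, which had the highest mean of the adipocyte and of the T and NK cell markers, LF_HF 1, which had the highest of the hepatocyte markers, and HF_HF 5, which had the highest of the myeloid markers, followed there by LF_LF 1. In whole tissue, fewer cells of a type and less RNA per cell cannot be told apart.

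The signals of different probes do not rank transcripts, so levels are given only against the array median of about 63. Slc25a5, an ADP and ATP exchanger, had signals of 1869.3 to 3024.5 over the 40 mice. Slc25a3, the phosphate carrier, reached 298.1 to 911.5 with its brighter signal, and Slc25a28, a mitochondrial iron importer, 395.6 to 589.9. At the other end, Slc25a18, a glutamate carrier, read 57.9 to 72.5, Slc25a29, a carrier of basic amino acids, 51.8 to 77.4, and the orphan Slc25a48, 56.8 to 68.1, so these 3 straddled the array median. The 12 members that did not pass were the aspartate-glutamate exchanger Slc25a13, Slc25a21, the glutamate carrier Slc25a22, Slc25a27, Slc25a30, Slc25a31, Slc25a34, Slc25a40, Slc25a41, Slc25a42, Slc25a46 and Slc25a53. By substrate, 6 of 8 amino acid carriers, 3 of 5 adenine nucleotide carriers, 3 of 4 carboxylate carriers, 4 of 5 cofactor carriers and 4 of 6 orphans were tested.

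The diet after weaning was the condition under which carriers moved. Averaged over both dam diets, 7 signals of 6 carriers passed (limma, Benjamini-Hochberg adjusted over all 12246 signals, adjusted p under 0.05), 4 signals higher and 3 lower in HF-fed mice. That is 20% of the 35 member signals, while 5.22% of all signals were called, 2.75% higher and 2.47% lower. The orphan Slc25a45, the glycine carrier Slc25a38 and the phosphate carrier Slc25a3 rose, and the orphan Slc25a35, the folate and FAD carrier Slc25a32 and the glutamate carrier Slc25a18 fell. At an unadjusted p under 0.05 there were 10 member signals (28.6%), beside 19.1% of all signals, and the median log2 difference was 0.0024 over the members and -0.00064 over all signals.

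**Figure D1:**
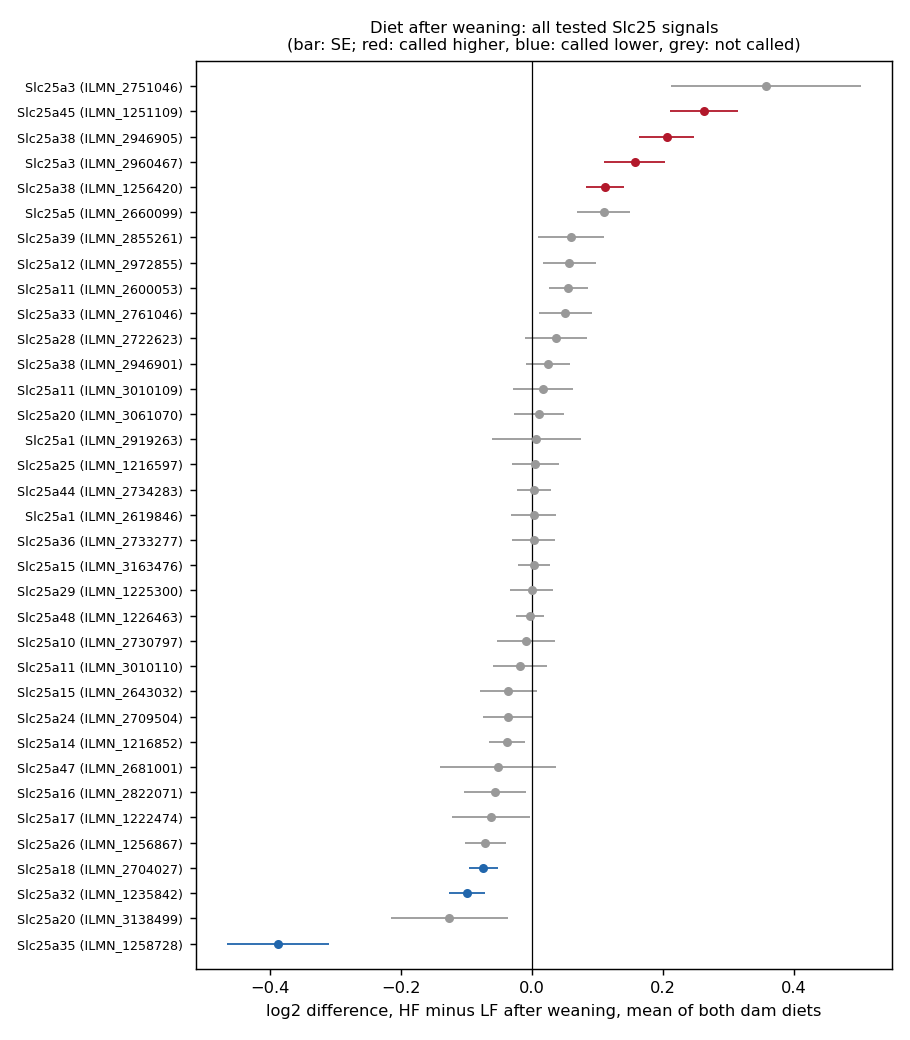
Log2 difference in pancreas signal, HF minus LF after weaning and averaged over both dam diets, for the 35 tested Slc25 signals (x axis; bars are SE, 40 arrays), ordered by size. The 7 called signals lie at both ends, Slc25a45 at 0.26 and Slc25a35 at -0.39, and the brighter Slc25a3 signal at 0.36 has a wide SE of 0.14 and was not called.

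Slc25a45 (ILMN_1251109), an orphan carrier, had the smallest p of the family. Its signal ran 149.9, 165.45 and 193.9 (lowest, median, highest) in HF_HF against 135, 148.75 and 171.9 in HF_LF, and 181.7, 201.5 and 238.5 in LF_HF against 123.7, 161.8 and 202.6 in LF_LF. HF-fed mice were the higher ones under either dam diet, with overlap in both pairs, and all 10 HF_HF mice lay above the HF_LF median and all 10 LF_HF mice above the LF_LF median. The averaged difference was 0.26 on the log2 scale (SE 0.05, 1.2-fold, adjusted p = 0.00169, limma). Its deviations from the group means followed the mean of the acinar markers across the 40 arrays (Pearson r = 0.546), and with that mean as a covariate the averaged difference was 0.17 (SE 0.05, adjusted p = 0.0306, limma). The acinar mean had log2 deviations from its mean over all mice of 0.02 in HF_HF against -0.04 in HF_LF, and of 0.04 in LF_HF against -0.02 in LF_LF. Within LF_LF, the lowest was -0.18 in LF_LF 1, which stood apart. By sign, 9 markers were higher and 8 lower in HF_HF against HF_LF (median log2 difference 0.04). In LF_HF against LF_LF 8 were higher and 9 lower (median -0.0077). Medians of the summed signal were 387413 in HF_HF against 380664 in HF_LF, but 381118 in LF_HF against 385705 in LF_LF. The acinar measures thus did not all point 1 way in offspring of LF dams. The 5 signals whose deviations were most like those of Slc25a45 over the 40 arrays were Tmem97 (r = 0.825), Nomo1 (0.735), Clptm1l (0.722), Ppp3ca (0.722) and Hapln4 (0.707). Of these, Tmem97, a sterol-responsive membrane protein also known as the sigma-2 receptor, was itself 0.54 higher on the log2 scale in HF-fed mice (adjusted p = 0.000195, limma), and Nomo1 0.18 higher (adjusted p = 0.0422, limma).

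Slc25a35 (ILMN_1258728), another orphan, moved in the opposite direction and had the largest difference of the called carriers. Its signal was 108.6, 125.75 and 165.9 (lowest, median, highest) in HF_HF against 130.1, 175.5 and 249 in HF_LF, and 91.1, 121.55 and 159.8 in LF_HF against 112.5, 143.7 and 195.6 in LF_LF. HF-fed mice were the lower ones, with overlap in both pairs, and 10 of 10 HF_HF mice lay below the HF_LF median and 8 of 10 LF_HF mice below the LF_LF median. The averaged log2 difference was -0.39 (SE 0.08, 1.31-fold lower, adjusted p = 0.00203, limma). In the RefSeq annotation Slc25a35 overlaps the gene Rangrf, and the position and strand of the array probe were not used here.

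Slc25a38 imports glycine into the matrix, where it feeds the first step of haem synthesis, and was read by 3 tested signals. The brightest (ILMN_2946905) was 233.1, 267.35 and 317 (lowest, median, highest) in HF_HF against 199.6, 244.6 and 255 in HF_LF, and 249.7, 278.8 and 341.1 in LF_HF against 208.4, 241.75 and 264 in LF_LF. It was higher in HF-fed mice by 0.21 on the log2 scale (SE 0.04, adjusted p = 0.00254, limma), with overlap in both pairs. The second (ILMN_1256420) rose by 0.11 (SE 0.03, adjusted p = 0.0177, limma), and 7 of 10 HF_HF mice lay above the HF_LF median and 10 of 10 LF_HF mice above the LF_LF median. The third (ILMN_2946901), at signals of 64.1 to 89.5, differed by 0.02 (SE 0.03, adjusted p = 0.757, limma). The first pair followed each other within groups (r = 0.592, 40 arrays), whereas the third followed the brightest with r = 0.107.

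Slc25a3 brings in the phosphate that ATP synthase joins to ADP. Its dimmer signal (ILMN_2960467) was 174.3, 215.35 and 229.7 (lowest, median, highest) in HF_HF against 162.9, 180.35 and 199.3 in HF_LF, and 170.3, 199.35 and 238 in LF_HF against 145.6, 191.25 and 222.7 in LF_LF. The averaged difference was 0.16 on the log2 scale (SE 0.05, adjusted p = 0.0391, limma), and 16 of 20 HF-fed mice lay above the LF-fed median of their dam diet. The brighter signal (ILMN_2751046) pointed the same way, with medians of 831.5 in HF_HF against 462.7 in HF_LF and of 539.95 in LF_HF against 390.75 in LF_LF, but did not pass (0.36, SE 0.14, adjusted p = 0.146, limma). Its within-group SD of 0.49 on the log2 scale ranked 146th of the 12246 tested signals, and its signal ran 388.7 to 902.2 in HF_HF against 319.1 to 704.3 in HF_LF, and 391.5 to 827.8 in LF_HF against 298.1 to 911.5 in LF_LF.

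**Figure D2:**
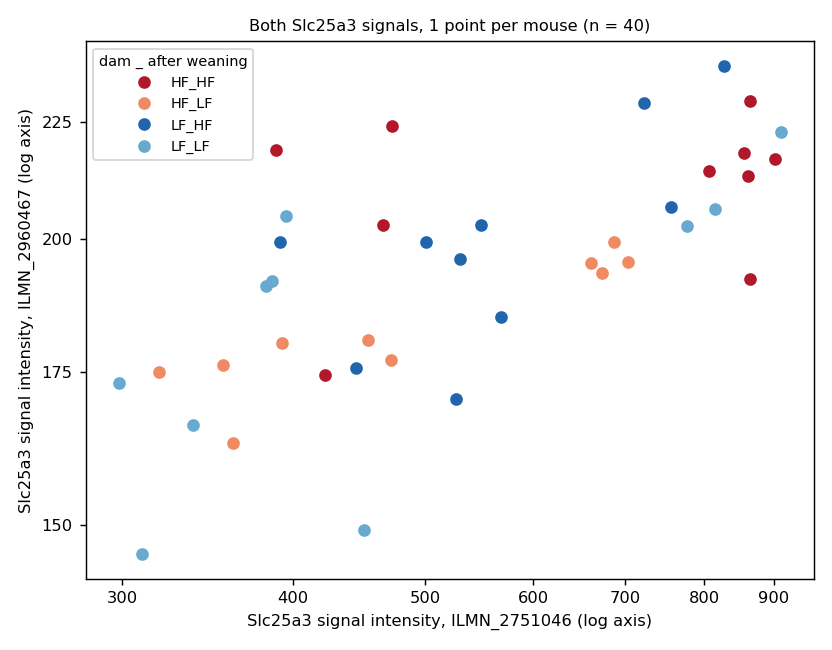
Signal intensity of both Slc25a3 signals in each of the 40 mice (both axes logarithmic, colours give the group). The brighter signal (x axis) spans 298.1 to 911.5 with a gap between 568.3 and 660.8, and mice above the gap occur in every group.

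The remaining 2 called carriers were dim. Slc25a32, which carries folate and FAD (ILMN_1235842), was 65.8, 70.15 and 72.8 (lowest, median, highest) in HF_HF against 67.9, 76.85 and 84.7 in HF_LF, and 68.4, 72.7 and 79.3 in LF_HF against 70, 75.2 and 83.7 in LF_LF. It was lower in HF-fed mice by the averaged log2 difference of -0.10 (SE 0.03, adjusted p = 0.0226, limma), and its other signal was not tested. Slc25a18, one of the glutamate carriers (ILMN_2704027), was 57.9, 62.45 and 67.5 in HF_HF against 62.6, 67.9 and 72.5 in HF_LF, and 60.3, 62.7 and 68.3 in LF_HF against 61.8, 65.65 and 68.6 in LF_LF. Its averaged log2 difference was -0.07 (SE 0.02, adjusted p = 0.034, limma) with values at the array median, and overlap was present in all these pairs.

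**Figure D3:**
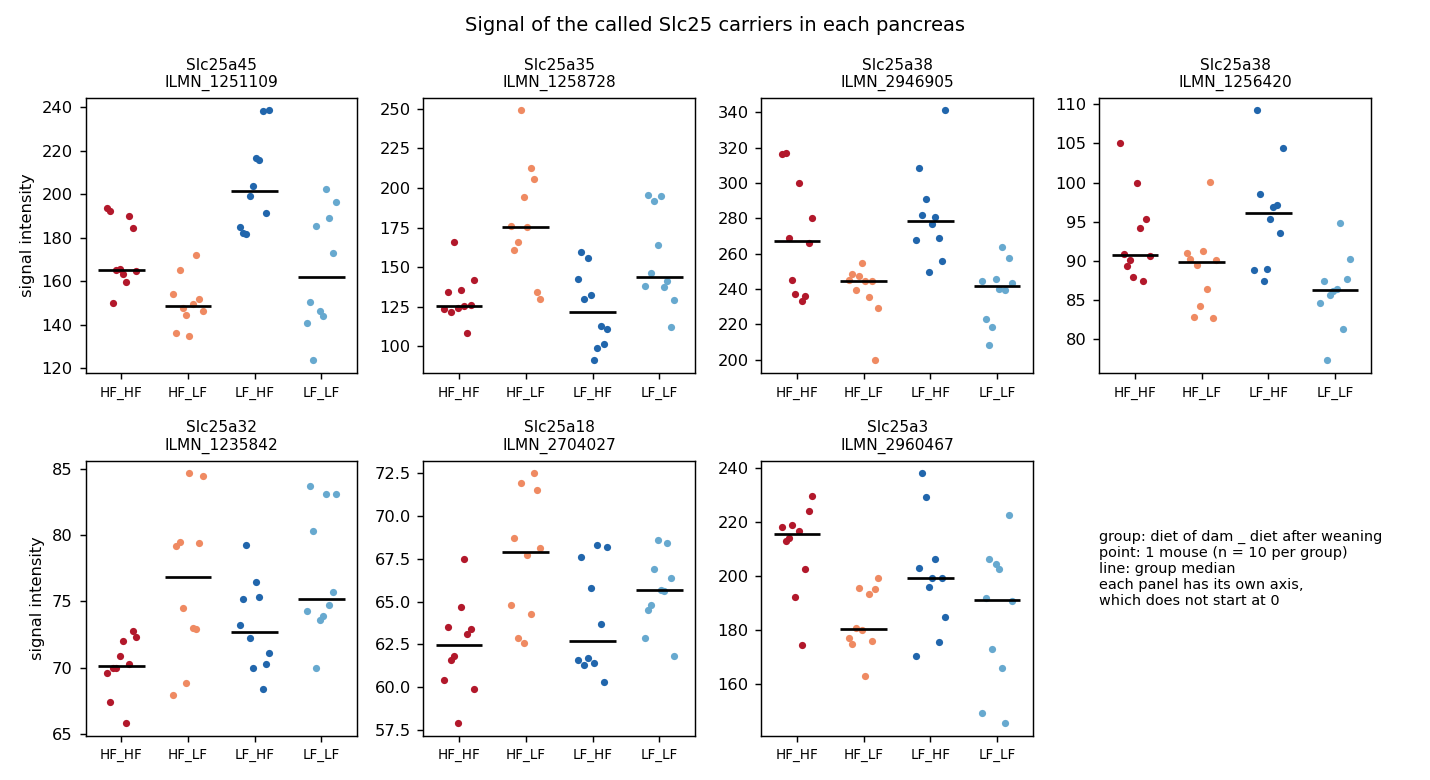
Signal intensity of the 7 called Slc25 signals in each mouse by group (dam diet first, diet after weaning second; line is the median, n = 10 per group; each panel has its own axis, which does not start at 0). In Slc25a45, Slc25a38 and Slc25a3 the HF-fed groups have the higher medians and in Slc25a35, Slc25a32 and Slc25a18 the lower ones, with overlapping points throughout.

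Several other carriers did not pass. Slc25a5 had medians of 2418.6 in HF_HF against 2231.3 in HF_LF and of 2442.5 in LF_HF against 2277.7 in LF_LF, and its averaged difference was 0.11 (SE 0.04, adjusted p = 0.105, limma). The S-adenosylmethionine carrier Slc25a26 differed by -0.07 (SE 0.03, adjusted p = 0.188, limma). Slc25a20, which exchanges carnitine for acylcarnitines and so admits fatty acids to the matrix, differed by -0.13 with its brighter signal (SE 0.09, adjusted p = 0.485, limma) and by 0.01 with the next (SE 0.04). None of the 3 tested carboxylate carriers, Slc25a1, Slc25a10 and Slc25a11, was called.

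Taken by dam diet, the same contrast gave few calls. In offspring of HF dams, HF_HF against HF_LF, 2 of 35 member signals passed (5.71%, 1 higher and 1 lower), while 2.24% of all signals were called, 1.05% higher and 1.19% lower. Slc25a35 differed by -0.45 on the log2 scale (SE 0.10, 1.36-fold lower, adjusted p = 0.0202, limma), with all 10 HF_HF mice below the HF_LF median. The dimmer Slc25a3 signal rose by 0.20 (SE 0.05, adjusted p = 0.046, limma), with 9 of 10 HF_HF mice above that median. Slc25a45 came next at 0.20 (SE 0.06, adjusted p = 0.0539, limma) and did not pass, although all 10 HF_HF mice lay above the HF_LF median. At an unadjusted p under 0.05 there were 9 member signals (25.7%), beside 17.6% of all signals.

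Both calls in offspring of HF dams depended on single cages and on the fit, and calls over the whole array fell as well. The Slc25a3 call also depended on single mice, while that of Slc25a35 was kept without any 1 of the 20. Of all 12246 signals, 274 were called in the main fit, 48 without cage 10, 13 without cage 21 and 2 without cage 23. With the acinar marker mean as a covariate 10 were called, and with 1 mean per cage and group 2. The Slc25a35 call was lost without cage 10 (adjusted p = 0.0712), 20 (0.063), 21 (0.0967) or 23 (0.103), at log2 differences of -0.46, -0.41, -0.42 and -0.44, with the acinar marker mean as a covariate (-0.48, adjusted p = 0.0659, limma), and with 1 mean per cage and group (-0.47, adjusted p = 0.117, limma). The Slc25a3 call was lost without any 1 mouse other than HF_HF 5, HF_HF 7 or HF_LF 7, at an adjusted p of 0.0505 to 0.0887, without cage 1, 10, 21 or 23 (0.0644 to 0.251), and with the adipocyte or the acinar marker mean as a covariate (adjusted p of 0.106 and 0.0957, limma). It was also lost with cage as a fixed block (log2 difference 0.25, adjusted p = 0.101, limma), with 1 mean per cage and group (0.21, adjusted p = 0.161, limma) and with all 40 arrays fitted together (0.20, adjusted p = 0.105, limma). Slc25a45 passed in this contrast without cage 20 (0.26, adjusted p = 0.036) or without HF_HF 3, HF_HF 7, HF_LF 3 or HF_LF 8 (adjusted p of 0.0343 to 0.0449). With all mice kept, it passed without the intensity trend (0.0411), after cyclic loess normalization (0.0393) and with a stricter filter on brightness (0.0397, limma). A covariate chosen after seeing the data gave 0.0446 (limma). In 12 of 16 refits it stayed uncalled.

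In offspring of LF dams, LF_HF against LF_LF, 0 of 35 member signals passed, while 0.0408% of all signals were called. With limma, 4 member signals (11.4%) had an unadjusted p under 0.05, beside 8.95% of all signals. The smallest p belonged to the brightest Slc25a38 signal (0.24, SE 0.06, adjusted p = 0.157), Slc25a45 (0.32, SE 0.09, adjusted p = 0.201) and the second Slc25a38 signal (0.15, SE 0.04, adjusted p = 0.248), and in each of the 3 all 10 LF_HF mice lay above the LF_LF median. Slc25a35 differed by -0.33 (SE 0.11, adjusted p = 0.331, limma). When all 40 arrays were fitted together, Slc25a45 passed in this contrast (adjusted p = 0.046, limma).

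The difference between these 2 contrasts was tested as the interaction, in which 0 of 35 member signals and 0% of all signals passed (limma). Only 1 member signal (2.86%) had an unadjusted p under 0.05, beside 5.52% of all signals. That was Slc25a26 (-0.13, SE 0.06, adjusted p = 0.866, limma), followed by Slc25a47, a carrier enriched in liver (-0.34, SE 0.18), and Slc25a18 (-0.08, SE 0.04), both at the same adjusted p. The Slc25a47 value was unsteady, at -0.65 to -0.04 over refits and -0.38 to -0.19 with 1 mouse left out. Its signal in LF_HF 1 was 194.7, against 82.6 in the next mouse of that group.

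**Figure D4:**
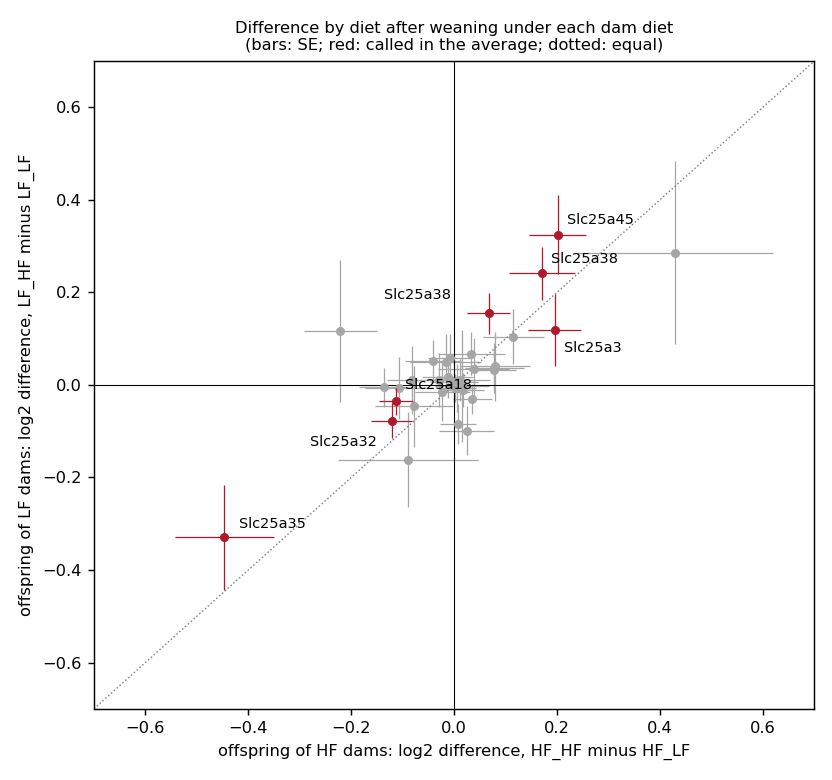
Log2 difference by diet after weaning for the 35 tested Slc25 signals in offspring of HF dams (HF_HF minus HF_LF, x axis) and of LF dams (LF_HF minus LF_LF, y axis); bars are SE and red marks the 7 signals called in the average. The red points lie on the same side of 0 on both axes, such as Slc25a35 at -0.45 and -0.33 and Slc25a45 at 0.20 and 0.32.

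Cages that held mice on both diets allow the contrast within a cage, although cage 10 had only 1 HF-fed mouse and cage 20 only 1 LF-fed mouse. Several extremes given here come from these 2 cages, such as -0.68 for Slc25a35 in cage 20 and 0.42 for Slc25a45 in cage 10. Slc25a35 was lower in the HF-fed mice of all 5 such cages, at log2 differences of -0.68 to -0.16, and the brightest Slc25a38 signal was higher in all 5, at 0.06 to 0.36. Slc25a18 was also lower in 5 of 5 (-0.20 to -0.0017). So was Slc25a47, which was not called (-0.39 to -0.13). The called signals were picked from these same mice, which makes agreement between cages likely beforehand. Slc25a45 was higher in 4 of 5 (-0.08 to 0.42), Slc25a3 in 4 of 5 (-0.15 to 0.31) and the second Slc25a38 signal in 4 of 5 (-0.09 to 0.21), and Slc25a32 was lower in 4 of 5 (-0.18 to 0.06). With cage as a fixed block, Slc25a45 and Slc25a35 remained called in the average and the brightest Slc25a38 signal kept its size (0.21, SE 0.06) but not its call (adjusted p = 0.0535, limma). With 1 mean per cage and group, the brightest Slc25a38 signal was the only member called, beside Slc25a35 at an adjusted p of 0.0717 and Slc25a45 at 0.0771 (limma).

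**Figure D5:**
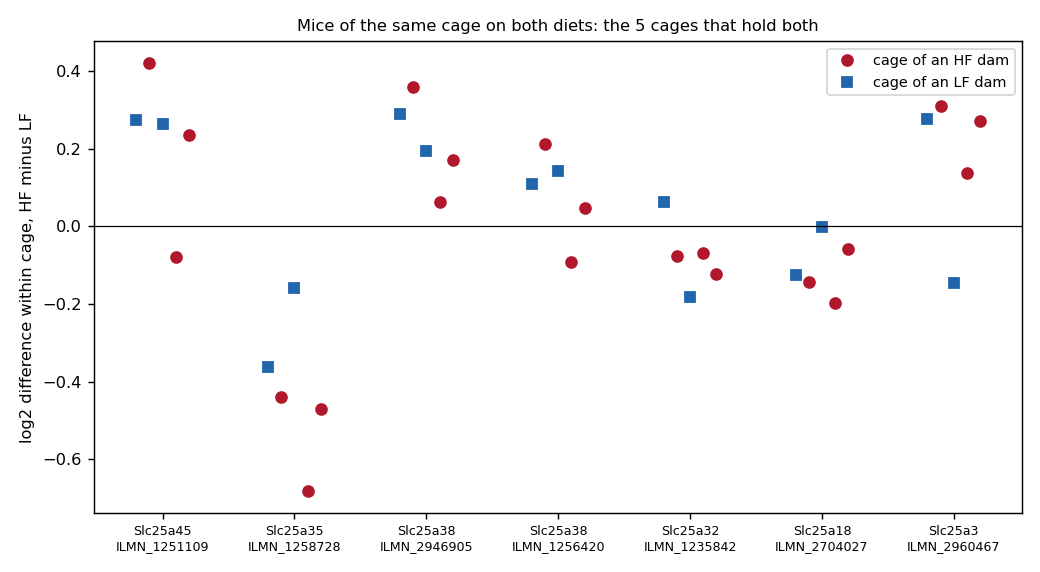
Log2 difference, HF minus LF after weaning, within each of the 5 cages that hold mice on both diets (1 point per cage; circles, HF dams; squares, LF dams) for the 7 called Slc25 signals. All 5 points of Slc25a35 and of Slc25a18 are below 0 and all 5 of the brightest Slc25a38 signal are above it. The point of cage 10 rests on 1 HF-fed mouse and that of cage 20 on 1 LF-fed mouse.

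The diet of the dam moved no carrier past the threshold. In mice fed HF, HF_HF against LF_HF, 0 of 35 member signals and 0% of all signals passed, and 3 member signals (8.57%) had an unadjusted p under 0.05, beside 6.21% of all signals (limma). Slc25a45, at a median of 165.45 in HF_HF against 201.5 in LF_HF, had the smallest member p (-0.25, SE 0.06, adjusted p = 0.75, limma), followed by the citrate carrier Slc25a1 (-0.12, SE 0.05) and the ATP-Mg carrier Slc25a25 (-0.10, SE 0.04). In mice fed LF, HF_LF against LF_LF, 0 of 35 member signals and 0% of all signals passed, and 0 member signals reached an unadjusted p under 0.05, beside 8.58% of all signals (limma). The uncoupling protein like Slc25a14 (-0.09, SE 0.05), one signal of the oxoglutarate-malate exchanger Slc25a11 (0.13, SE 0.07) and Slc25a35 (0.21, SE 0.12) had the smallest p, all at an adjusted p of 0.604 or above. Averaged over the diets after weaning, 0 of 35 member signals passed, while 0.0653% of all signals were called, and 2 member signals (5.71%) had an unadjusted p under 0.05, beside 9.66% of all signals (limma). Slc25a45 led again, lower in offspring of HF dams by the log2 difference of -0.18 (SE 0.05, adjusted p = 0.14, limma). It passed without cage 8 (-0.24, adjusted p = 0.0136), without LF_LF 3 of that cage (-0.21, adjusted p = 0.0472) and with array weights (-0.20, adjusted p = 0.0468).

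Probes of 1 gene did not always report alike. The 3 signals of Slc25a11 followed each other within groups with r of 0.177, -0.027 and 0.451, and the pairs of Slc25a20, Slc25a1 and Slc25a15 with r of 0.706, 0.42 and 0.275 (40 arrays each, as a description). Single mice stood apart from their group in 5 of 13 named signals, most widely for the group's range in 2 of them. The brighter Slc25a1 signal was 303.3 in LF_LF 1, against 147.5 in the next mouse of its group, and Slc25a47 was 194.7 in LF_HF 1, against 82.6 in the next. LF_LF 1 is the array whose mean of the 10 measured adipocyte markers was the highest and whose summed signal of these markers was 4202.3, beside group medians of 668 to 859.2. LF_HF 1 had the highest hepatocyte sum, 14647.6, beside group medians of 1338.7 to 1597.25. The part of these cells in the 2 values was not tested.

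The proteins around the carriers were described with lists of genes, for the diet after weaning averaged over dam diets. ATP synthase, which uses the ADP and phosphate that carriers bring in, had 2 members higher and 3 lower of 15 tested, with a median log2 difference of -0.06, where 5.22% of all signals were called. Atp5g3 rose by 0.17 (SE 0.04, adjusted p = 0.0062, limma), while Atpif1, the inhibitor that blocks the enzyme when it would run backwards, differed by -0.35 (SE 0.05, adjusted p = 3.84e-05) and the subunit Atp5l by -0.30 (SE 0.05, adjusted p = 8.36e-05). Of the matrix enzymes of amino acids and folate, 3 of 16 were higher and 2 lower. Aldh18a1, which starts proline synthesis, rose by 0.33 (SE 0.06, adjusted p = 0.000758, limma) and Shmt2, which makes glycine from serine, by 0.19 (SE 0.04, adjusted p = 0.00299, limma). Oat, the ornithine aminotransferase, differed by -0.21 (SE 0.05, adjusted p = 0.00576, limma).

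The TCA cycle had 1 higher (Ogdh) and 1 lower (Pdha1) of 19, and the import machinery that inserts carriers had 0 higher and 1 lower of 10 (Tomm7, -0.16, adjusted p = 0.0406, limma). Other transport proteins of the mitochondrial membranes had 0 of 14 called (2 at an unadjusted p under 0.05), and the enzymes of the carnitine shuttle and beta oxidation 0 of 14 (1 at an unadjusted p under 0.05, limma). Beside these lists, 5.22% of all signals were called and 19.1% had an unadjusted p under 0.05, so such small counts do not set the lists apart. Of 17 acinar markers 2 were called, and by sign 11 were higher and 6 lower, with a median log2 difference of 0.01. The called ones were the transcription factors Ptf1a (0.45, SE 0.11, adjusted p = 0.00685) and Bhlha15 (0.29, SE 0.07, adjusted p = 0.015), both higher in HF-fed mice (limma).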

How the data were processed

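RNA of whole pancreas from 40 male mice was hybridised to MouseRef-8 v2.0 beadchips of Illumina, with 1 array for each mouse. The deposited values are linear signal intensity, which the authors exported with BeadStudio (version not given in the sources used here) and quantile normalized over the 40 arrays, without background subtraction. Background left in the values makes log2 differences of dim signals smaller. Detection p-values, bead counts and positions on the chips were not used here, so precision rests on the number of arrays. No column of another series was in the table.

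Intensities were taken to log2 and fitted with limma (version 3.58.1 in R 4.3.3; lmFit and eBayes with a trend on intensity; two-sided p-values), adjusted by Benjamini-Hochberg over the 12246 tested signals. Pairs of groups were fitted on their 20 arrays, and the averaged diet effects and the interaction on all 40. A signal with an adjusted p under 0.05 was called. Fits were tested on simulated data. Figures were drawn with matplotlib 3.10.9 in Python 3.11.15.

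Named were members called in any fit, the 3 with the smallest p in fits with fewer than 3 calls, and the 3 with the highest and the 3 with the lowest mean; of other lists, up to 4 called genes by p. Of the 25697 signals, 23978 had 1 gene symbol and 1719 had none. Substrates are textbook background. The members and lists were chosen with earlier results of these data known. P-values without the cage treat mice of 1 cage as independent. The estimated correlation within cages was 0.00175 in the fit of all 40 arrays and -0.0185 to 0.0217 over the fits. These are consensus values over all tested signals, and that of a single carrier can differ and is not given. In LF_LF, Slc25a45 read 123.7 to 150.4 in cage 8, 144.2 to 185.5 in cage 4, 173.2 to 196.6 in cage 11 and 189.1 to 202.6 in cage 6.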

Additional observations from a re-analysis of the deposited data

Results flagged for a closer look

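In 52 sets of 10 mice (13 named signals in 4 groups), 5 had a highest or lowest mouse further from its nearest neighbour than Dixon's 95% critical value for the group's range allows, a distance that chance gives in about 1 of 20 sets. Signals are given as deposited, and each ratio of gap to range was taken on the log2 scale. The brighter Slc25a1 signal was 303.3 in LF_LF 1, next to 147.5 (gap over range 0.763), and Slc25a47 was 194.7 in LF_HF 1, next to 82.6 (0.761). One Slc25a11 signal (ILMN_3010109) was 153.1 in LF_LF 9, next to 124.7 (0.591). The brightest Slc25a38 signal was 199.6 in HF_LF 9, next to 229.5 at the low end (0.57), and the second Slc25a38 signal was 100.1 in HF_LF 8, next to 91.2 (0.488). Without HF_LF 9 or HF_LF 8, both Slc25a38 signals remained called for the diet after weaning averaged over dam diets.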

How the results depend on the processing

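Results were refitted with other normalizations, filters, variance models, marker covariates and treatments of the cage. Of 113 refits of a count of called members, 102 stayed within 1.5 times the main count. Most of these came from fits with a main count of 0, in which few or no signals of the array passed. In HF_HF against HF_LF 10 of 17 stayed, and in the averaged effect of the diet after weaning 14 of 16. Of 375 refits of a named member 0 changed sign, but most members were named for small p in these same data, which makes a stable sign likely beforehand. In HF_HF against HF_LF the count of 2 became 1 without the filter, with the adipocyte covariate and with cage as a fixed block. It became 0 with the acinar covariate and with 1 mean per cage and group, and 5 at an adjusted p under 0.1. Over all signals the calls went from 274 to 76 without the filter, 102 with the adipocyte covariate and 51 with the cage block. They were 10 with the acinar covariate, 2 with 1 mean per cage and group, and 582 at an adjusted p under 0.1. The member count became 4 with a covariate chosen after seeing the data, beside 351 of all signals. That covariate was the mean of 20 signals most like the brighter Slc25a3 signal, which makes that signal's own error smaller by construction. Leaving out 1 cage or mouse gave 0 to 4. In LF_HF against LF_LF the count of 0 became 1 with all 40 arrays in 1 fit, and leaving out 1 cage or mouse gave 0 to 0. For the diet after weaning averaged over dam diets the count of 7 became 2 with cage as a fixed block and 1 with 1 mean per cage and group. Over all signals 639 calls became 191 and 178 in these 2 refits. With 1 cage or mouse left out the member count was 4 to 8. For the dam diet the averaged count of 0 became 1 with array weights and was 0 to 1 with 1 cage or mouse left out. The counts of HF_LF against LF_LF, HF_HF against LF_HF and the interaction were 0 throughout, also with 1 cage or mouse left out (0 to 0).

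In the averaged diet effect, Slc25a45, Slc25a35 and the brightest Slc25a38 signal were each called in 14 of 15 refits and without any 1 of the 12 cages or 40 mice. The second Slc25a38 signal lost its call without cage 11 or 23 (adjusted p of 0.0524 to 0.0532), and Slc25a32 without cage 11, 12 or 23 (0.0517 to 0.127). Slc25a18 lost it without cage 4, 6, 10, 11, 12 or 21 (0.051 to 0.185) or without HF_HF 5 or 10, HF_LF 2, 4, 8 or 9, LF_HF 3, 4 or 9, or LF_LF 5 or 8 (0.0517 to 0.0545). Slc25a3 lost it without cage 4, 6, 9, 10, 21 or 23 (0.066 to 0.153) or without HF_HF 1, 2, 3, 4, 6, 9 or 10, HF_LF 1, 2, 6 or 8, LF_HF 2, 3, 4 or 7, or LF_LF 4, 7 or 8 (0.0511 to 0.0653). With the acinar covariate the second Slc25a38 signal (adjusted p = 0.0538) and Slc25a3 (0.0618) lost the call, and without the filter Slc25a18 (0.0795) and Slc25a3 (0.0816) did. Why calls changed was not tested. By mouse number, no paired analysis was possible because the numbers only follow the order of deposit, and diets were paired within cages by the fixed cage block. A fixed cage effect could not be fitted for the dam diet.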

Other observations

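The brighter Slc25a3 signal shared its variation between mice with many signals. Within groups, 355 of the 12246 tested signals followed it with r over 0.8 and 6 with r under -0.8 (40 arrays), among them Rps9 (r = 0.968), Aldh6a1 (0.961), Srp14 (0.958), Il10rb (0.958) and Zbtb18 (0.958). Sorted over the 40 mice, its values had their widest step between 568.3 and 660.8, with 24 mice below and 16 above, of which 6 were HF_HF, 4 HF_LF, 3 LF_HF and 3 LF_LF. Of the other carriers, the peroxisomal cofactor carrier Slc25a17 followed it with r = 0.831, 1 of 3 Slc25a11 signals (ILMN_3010109) with 0.773 and Slc25a14 with 0.682, whereas Slc25a45 had r = -0.304, Slc25a35 -0.033 and the brightest Slc25a38 signal 0.17.

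With the mean of the 20 signals most like it as a covariate, chosen after seeing the data and with Slc25a3 itself in view, the 7 signals called in the averaged diet effect without the covariate were also called with it. Slc25a17, which followed the brighter Slc25a3 signal with r = 0.831, passed in addition (-0.11, SE 0.03, adjusted p = 0.0216, limma). Without the covariate it was not called, at mean log2 signals of 7.18 in HF_HF against 7.26 in HF_LF and of 7.14 in LF_HF against 7.19 in LF_LF. The covariate was not equal between groups, with medians of 0.41 in HF_HF, -0.16 in HF_LF, -0.17 in LF_HF and -0.38 in LF_LF. No call is drawn for the brighter Slc25a3 signal from that fit, since the 20 signals were picked for their likeness to it. None is drawn for Slc25a17 either, since it varies with that signal and its error shrinks by the same choice. What the mice with high values share was not tested.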
